A study of Mus musculus with 10 samples.

Results

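The genes described here encode 8 matrix metalloproteinases (MMPs) and 2 tissue inhibitors of metalloproteinases (TIMPs). They were taken by symbol: Mmp8, Mmp9, Mmp12, Mmp13, Mmp14, Mmp19, Mmp25, Mmp27, Timp1 and Timp2, 10 of the 19935 genes that array features name singly. Each was read from 1 feature, and all 10 were above the low-value filter. Mmp9, Mmp13 and Mmp25 also belong to the genes that the study selected on these same arrays, so their direction here is not independent evidence. RNA was profiled on Affymetrix Mouse Gene 1.0 ST arrays in macrophages grown from the bone marrow of male C57BL mice (C57BL/6J by the methods of the study, the controls being littermates), with 5 arrays of wild type (WT) and 5 arrays of Rac2 -/- cells, written Rac2-/- below. Rac2 is a small GTPase of blood cells that acts on the actin cytoskeleton and on the NADPH oxidase, and Rac2-/- mice carry the deletion in every cell, so the bone marrow precursors lacked Rac2 as well. Both groups were differentiated with M-CSF at 50 ng/ml and in 20% serum, for 7 days by one label and 8 by another, at 16% oxygen, with no further treatment and with more than 80% of the cells positive for Mac1 by the labels. The study asked which genes depend on Rac2 in macrophages, and the one comparison that the design allows is WT against Rac2-/-.

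MMPs are zinc-dependent endopeptidases that are made as inactive proenzymes and are switched on when the propeptide is cut away, outside the cell or, for furin-cleaved members, before they reach the surface. They cut collagens, gelatin, elastin and other matrix proteins, and also release or inactivate chemokines and growth factors. TIMPs bind the active site of MMPs and of some ADAM proteases, and macrophages are a main source of several members in wounds, atherosclerotic plaques and tumors.

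Of the 10 genes, Mmp25 was higher in WT and Mmp19 was higher in Rac2-/- macrophages. Mmp25, a protease anchored in the plasma membrane of leukocytes, was 1.59-fold higher in WT, and Mmp19, a protease found in macrophages and epidermis, was 1.49-fold higher in Rac2-/-. The signal of Mmp25 was low, around the median of an array. With 1 array left out, the Mmp25 call was kept in all 10 fits and the Mmp19 call in only 2. Mmp13 and Mmp27 were higher in every WT array than in any Rac2-/- array but missed the threshold in the fit without further terms. Mmp8, Mmp12, Mmp14, Timp1 and Timp2 overlapped between the groups, and so did Mmp9, the gelatinase, in spite of the largest mean difference of the 10. The values are log2 expression, so a difference of 1 is a doubling, and all differences are WT minus Rac2-/-.

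The upstream sequences of Mmp13, Mmp25 and Mmp27 are shown because these are the genes whose WT arrays all lay above the Rac2-/- arrays. Each is the 250 bases before the RefSeq start of transcription in the mouse build GRCm38.p6, read 5′ to 3′ on the strand of the gene. Capitals mark every match, on either strand, to an AP-1 motif (TGANTCA), an Ets motif (AGGAAG) or a TATA box (TATAAA). The Mmp13 window is chr9:7272264-7272513 on the plus strand, that of Mmp25 is chr17:23645270-23645519 on the minus strand and that of Mmp27 is chr9:7571146-7571395 on the plus strand.
Mmp13: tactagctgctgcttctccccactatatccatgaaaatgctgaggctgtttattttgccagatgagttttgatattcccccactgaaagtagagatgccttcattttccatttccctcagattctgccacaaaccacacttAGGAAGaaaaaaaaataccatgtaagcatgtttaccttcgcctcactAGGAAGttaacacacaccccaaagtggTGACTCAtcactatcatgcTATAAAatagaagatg
Mmp25: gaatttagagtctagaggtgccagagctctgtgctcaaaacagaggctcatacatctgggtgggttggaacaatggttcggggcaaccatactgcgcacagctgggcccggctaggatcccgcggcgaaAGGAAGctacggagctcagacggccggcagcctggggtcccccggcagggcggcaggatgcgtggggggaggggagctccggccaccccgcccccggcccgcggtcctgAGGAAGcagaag
Mmp27: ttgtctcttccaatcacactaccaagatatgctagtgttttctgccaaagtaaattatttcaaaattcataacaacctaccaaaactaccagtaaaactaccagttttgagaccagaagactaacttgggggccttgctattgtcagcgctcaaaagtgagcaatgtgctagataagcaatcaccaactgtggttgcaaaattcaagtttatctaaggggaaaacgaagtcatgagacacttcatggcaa
Counted from the start, the Mmp13 window held TGACTCA at -35, AGGAAG at -109 and -62, and TATAAA at -16. The Mmp25 window held AGGAAG at -121 and -12 and no match to the other motifs, and the Mmp27 window held no match to any of them. Over 32851 promoter windows of this length, 6.75% held the AP-1 motif, 29.5% the Ets motif and 12.4% the TATA box. The Ets motif, on either strand, was also in windows of members that did not separate the groups: Timp1 (-175 and -99), Mmp14 (-209), Mmp8 (-220) and a first Mmp12 start (-87). A second Mmp12 start held TGAGTCA at -44, and the Timp2 window held no match. The promoter table used here covered 8 of the 10 genes, without Mmp9 and Mmp19. A match is a run of letters and not a measured binding site.

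The labels were checked on Rac2 itself. Its log2 values were 11.81, 11.82, 12.26, 12.19 and 12.42 in WT arrays 1 to 5, and 6.90, 6.80, 7.04, 7.54 and 7.20 in Rac2-/- arrays 1 to 5. The difference was 5.00 (SE 0.17, limma adjusted p = 7.73e-07). Arrays 1 and 2 of both groups stood apart from arrays 3 to 5: correlations across features were 0.974 to 0.996 between arrays of the same set and 0.934 to 0.955 between the sets. Neither the labels nor the table headers name these sets, and each holds both genotypes (2 and 3 arrays per group), so they are called batches from the values alone and the difference of each of the 10 genes is also given within each. Macrophage markers such as Csf1r, Adgre1 and Cd68 averaged 12.06 to 12.24 in WT and 12.04 to 12.27 in Rac2-/- arrays over 12 measured genes. Of these 1 passed the threshold, against 1.90% of all features: Mrc1, the mannose receptor (-0.66, limma adjusted p = 0.00352). With the array number as a block 6.35% of all features passed. Of the 12 markers 2 more did so: Itgam, a chain of Mac1 (-0.33, adjusted p = 0.0559 without the block and 0.0380 with it), and Fcgr1, an Fc receptor (0.74, 0.123 and 0.0449). In RNA from whole cultures, fewer cells of a type and less RNA per cell cannot be told apart.

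**Figure D1:**
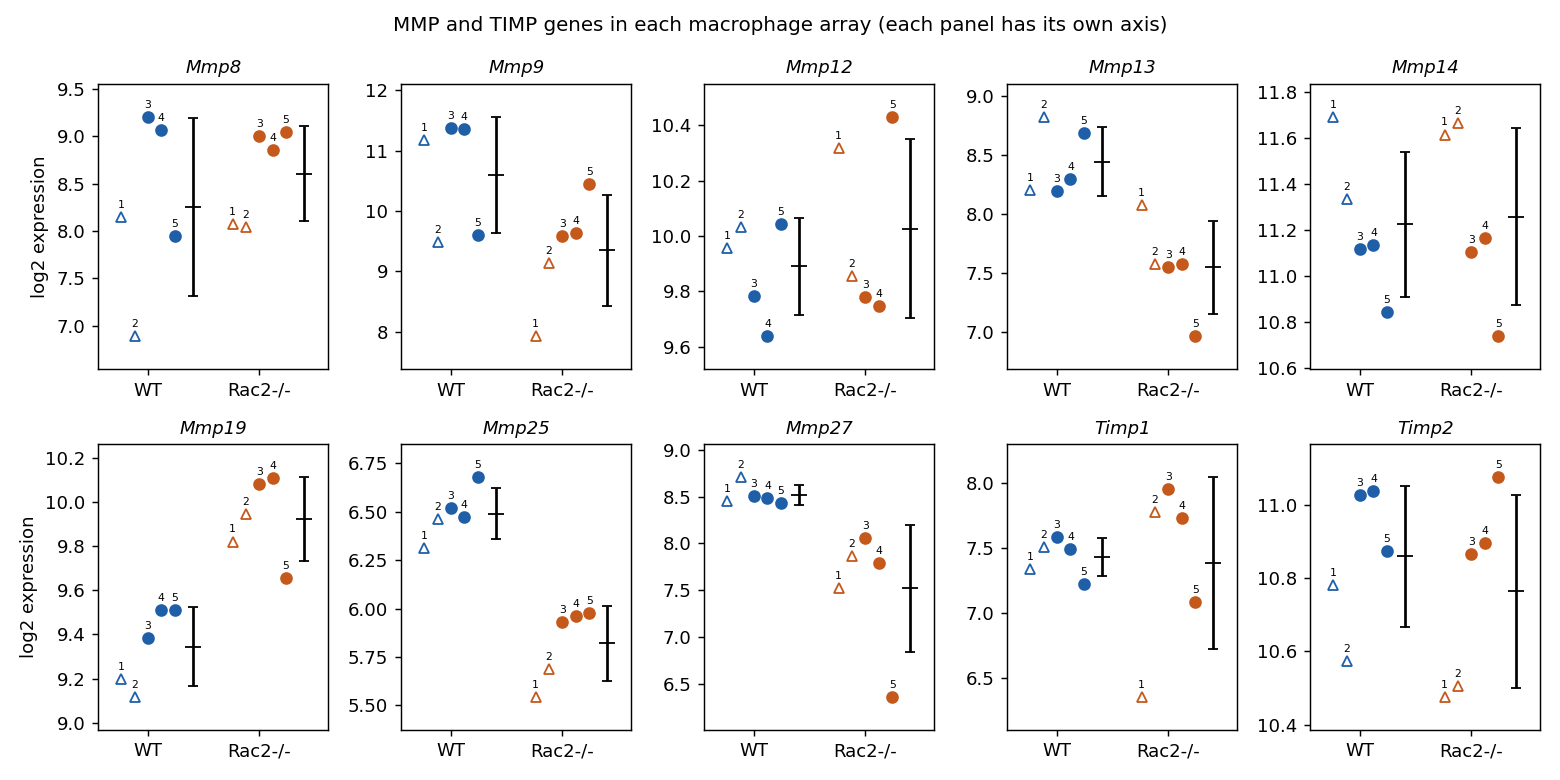
Log2 expression of the 10 MMP and TIMP genes in every array, with WT in blue and Rac2-/- in orange, numbers giving the array, open triangles arrays 1 and 2 and filled circles arrays 3 to 5. Black bars are the mean and SD of 5 arrays. The groups do not overlap for Mmp13, Mmp19, Mmp25 and Mmp27.

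Across the table, 1.90% of the features tested passed the adjusted threshold, and 2 of the 10 genes did, 1 in each direction. Of all features, 1.11% passed with the higher level in WT and 0.795% with the higher level in Rac2-/-. At an unadjusted p under 0.05 there were 5 of the 10 genes and 10.4% of all features. The groups of arrays did not overlap for 4 of the 10 genes and for 4.52% of all features tested. With the array number as a block, 3 of the 10 genes and 6.35% of features passed. By direction these were 3.03% of features with the higher level in WT and 3.32% with that in Rac2-/-. With the batch as a term, 4 of the 10 genes and 9.34% of features passed. The mean was higher in WT for 6 genes and in Rac2-/- for 4, and the median difference of the 10 genes was 0.07, against 0.0003 over all features tested. No feature passed the threshold for a difference in effect between the batches, and for the 10 genes the adjusted p of that interaction was 0.935 to 0.99, with unadjusted p from 0.23 to 0.83. Over all features, 5.77% had an unadjusted interaction p under 0.05.

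**Figure D2:**
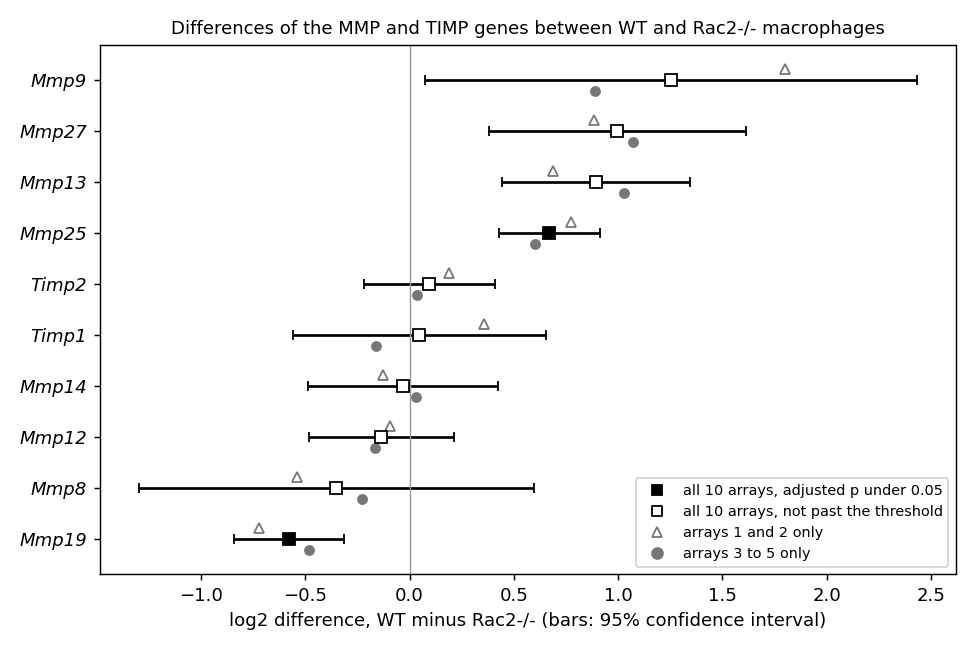
Log2 difference of each gene, WT minus Rac2-/-, over all 10 arrays with its 95% confidence interval (squares, filled where the limma adjusted p is under 0.05), in arrays 1 and 2 only (open triangles) and in arrays 3 to 5 only (circles). Only the filled squares of Mmp25 (0.67) and Mmp19 (-0.58) passed the threshold.

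The membrane-anchored members are Mmp25 and Mmp14. Mmp25, also called MT6-MMP or leukolysin, is held by a glycolipid anchor and is best known from neutrophils. Its values were 6.31, 6.46, 6.52, 6.47 and 6.68 in WT arrays 1 to 5. In Rac2-/- arrays 1 to 5 they were 5.54, 5.69, 5.93, 5.96 and 5.98. Every WT array was higher than every Rac2-/- array, and within each genotype arrays 1 and 2 gave lower values than array 5. The signal was low: these values lay around the median over all features of an array (6.07 to 6.14). They were also below those of the deleted Rac2 in the Rac2-/- arrays (6.80 to 7.54). The means were 6.49 ± 0.13 in WT and 5.82 ± 0.19 in Rac2-/- (SD, n = 5), a difference of 0.67 (SE 0.11, 95% interval 0.43 to 0.91, limma adjusted p = 0.0132). It was 0.77 within arrays 1 and 2 and 0.60 within arrays 3 to 5. Mmp25 passed the threshold in all 10 fits that left out 1 array, with a largest adjusted p of 0.0465 without WT array 3.

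Mmp14, or MT1-MMP, spans the membrane, cuts fibrillar collagen at the cell surface and activates the proenzyme of Mmp2. In WT arrays 1 to 5 it measured 11.69, 11.34, 11.12, 11.14 and 10.84, and in Rac2-/- arrays 1 to 5 it measured 11.62, 11.67, 11.11, 11.17 and 10.74. Both genotypes gave the lowest value in array 5, and the spread followed the batch rather than the genotype: the mean was 11.58 in arrays 1 and 2 and 11.02 in arrays 3 to 5. The difference between the genotypes was -0.03 (95% interval -0.49 to 0.42, limma adjusted p = 0.999), with -0.13 in arrays 1 and 2 and 0.0290 in arrays 3 to 5.

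Among the collagenases, Mmp13 cuts fibrillar collagen, above all type II, and is the main interstitial collagenase of mice. Its values were 8.21, 8.83, 8.20, 8.30 and 8.69 in WT arrays 1 to 5 and 8.08, 7.57, 7.55, 7.58 and 6.97 in Rac2-/- arrays 1 to 5. The groups did not overlap, with Rac2-/- array 1 only just below the lowest WT arrays and Rac2-/- array 5 far below the rest. The means were 8.44 ± 0.29 in WT and 7.55 ± 0.39 in Rac2-/- (SD, n = 5), or 1.86-fold. The difference of 0.89 (SE 0.20, 95% interval 0.44 to 1.35) missed the threshold in the fit without further terms (limma adjusted p = 0.0603) and passed it with the batch as a term (0.0138). It was 0.69 in arrays 1 and 2 and 1.03 in arrays 3 to 5. Without Rac2-/- array 1 it passed as well (1.03, adjusted p = 0.0227), and without WT array 5 the adjusted p was 0.153.

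Mmp8, the collagenase of neutrophil granules, gave 8.15, 6.89, 9.21, 9.07 and 7.95 in WT arrays 1 to 5 and 8.08, 8.04, 9.00, 8.86 and 9.05 in Rac2-/- arrays 1 to 5. The WT arrays covered more than the whole range of the Rac2-/- arrays, and WT array 2 was the lowest of all. The means were 8.25 ± 0.94 in WT and 8.61 ± 0.50 in Rac2-/- (SD, n = 5), with a difference of -0.35 (95% interval -1.30 to 0.59, limma adjusted p = 0.98). It was -0.54 in arrays 1 and 2 and -0.23 in arrays 3 to 5. The value hung on single arrays: it was -0.0118 without WT array 2 and -0.59 without WT array 3, and -0.0084 with array weights.

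Mmp9, or gelatinase B, cuts denatured collagens and type IV collagen of basement membranes and is made by macrophages and neutrophils. It measured 11.18, 9.50, 11.38, 11.36 and 9.61 in WT arrays 1 to 5. In Rac2-/- arrays 1 to 5 it measured 7.93, 9.14, 9.59, 9.63 and 10.45. WT arrays 1, 3 and 4 were above every Rac2-/- array, while WT arrays 2 and 5 lay among them. The means of 10.60 ± 0.96 and 9.35 ± 0.92 (SD, n = 5) differed 2.38-fold. The difference of 1.25 (SE 0.53, 95% interval 0.07 to 2.43) had an unadjusted p of 0.0394 and an adjusted p of 0.431 in limma. It was 1.80 in arrays 1 and 2 and 0.89 in arrays 3 to 5, and it passed the threshold in 0 of the 10 fits that left out 1 array.

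Mmp8 and Mmp9 are stored in neutrophil granules, and Mmp25 is a neutrophil protease too, so markers of neutrophils and their precursors (Ltf, Camp, Ngp, Elane, Mpo, S100a8 and others, 16 of 17 measured) were read in the same arrays. Their mean level was 8.47, 6.92, 8.57, 8.52 and 6.70 in WT arrays 1 to 5 and 6.59, 7.94, 8.01, 7.88 and 7.53 in Rac2-/- arrays 1 to 5. WT arrays 2 and 5 and Rac2-/- array 1 were the 3 lowest, and these are the WT arrays with the lowest Mmp9 and the Rac2-/- array with the lowest Mmp9. Rac2-/- array 5 had the next-lowest marker level of its group (7.53) and its highest Mmp9 (10.45). Mmp8 was not the lowest of its group in Rac2-/- array 1 (8.08, against 8.04 in Rac2-/- array 2). Of the 16 markers 13 had the higher mean in WT, with a median difference of 0.32, and 0 passed the threshold in limma (1 at an unadjusted p under 0.05). With the marker level as a covariate the Mmp9 difference was 1.00 (adjusted p = 0.176). With both the marker level and the batch as covariates it was 1.03 (SE 0.25, adjusted p = 0.0322), in a fit in which 10.9% of all features passed. With the 3 low arrays left out it was 1.60 (adjusted p = 0.0777). These 3 fits were chosen after the values had been seen. The part of neutrophils in the Mmp9 values was not tested.

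Of the 3 arrays low in neutrophil markers, Rac2-/- array 1 had the lowest Mmp25 of all 10 arrays (5.54) and WT array 5 the highest (6.68), with WT array 2 in the middle of the WT values (6.46). With the marker level as a covariate the Mmp25 difference was 0.67 (adjusted p = 0.0216), that of Mmp19 was -0.59 (0.0435) and that of Mmp13 was 0.97 (0.0169). Without the 3 low arrays none of the 10 genes passed the threshold, with differences of 0.55 for Mmp25, -0.58 for Mmp19 and 0.82 for Mmp13, and adjusted p of 0.117, 0.189 and 0.119. Mmp2, or gelatinase A, a member of the wider list below that stromal cells are known to make, was low in the same 3 arrays: 7.90, 6.85, 8.58, 8.56 and 6.80 in WT arrays 1 to 5 and 6.64, 8.57, 9.03, 9.10 and 7.89 in Rac2-/- arrays 1 to 5. Timp3, the inhibitor that binds to matrix, ranged from 6.15 to 7.53 in WT and from 5.93 to 7.40 in Rac2-/-, and was lowest in Rac2-/- array 1 and WT array 2. The part of other cells in these levels was not tested.

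**Figure D3:**
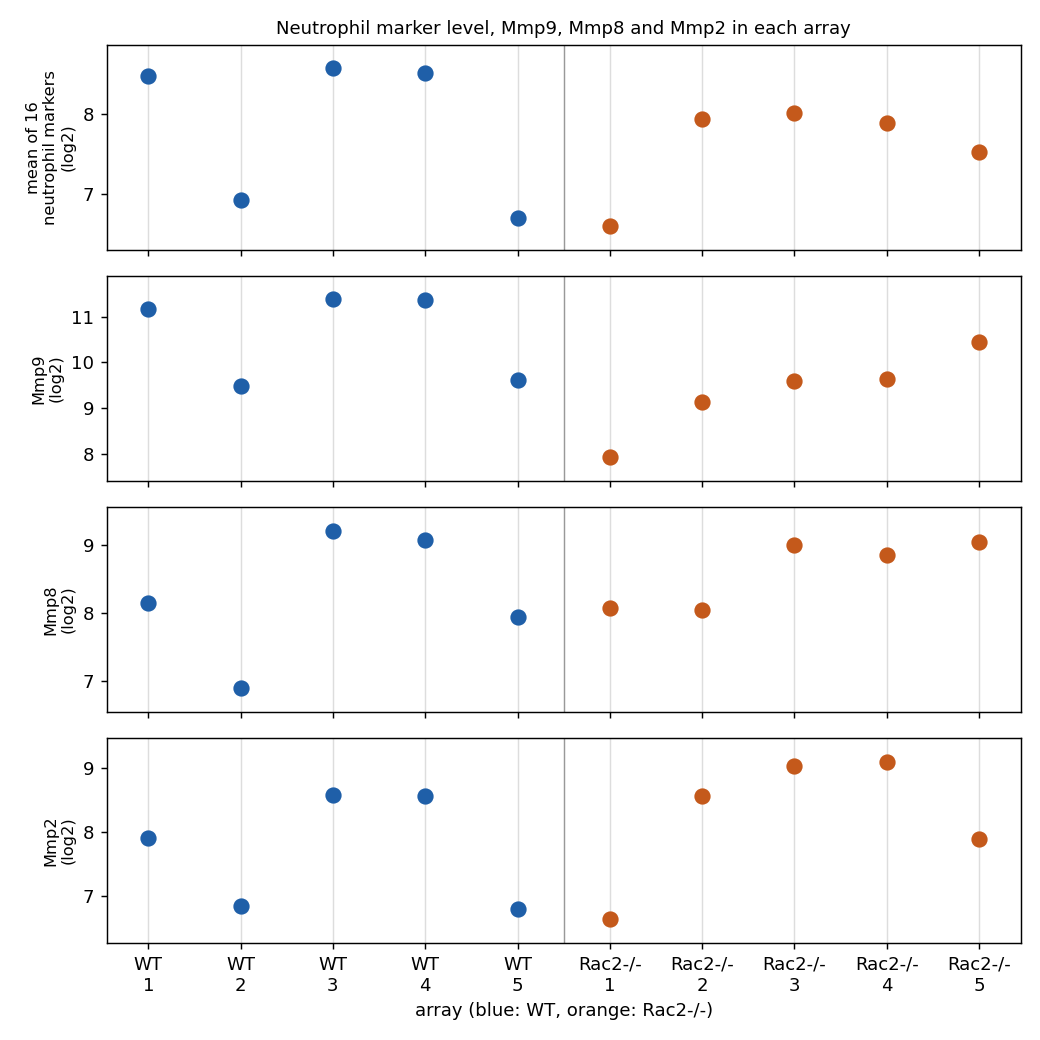
Mean log2 level of 16 neutrophil markers, Mmp9, Mmp8 and Mmp2 in each array (blue, WT; orange, Rac2-/-). WT arrays 2 and 5 and Rac2-/- array 1 are the lowest for the markers (6.92, 6.70 and 6.59) and for Mmp2 (6.85, 6.80 and 6.64). For Mmp9, Rac2-/- array 1 is the lowest (7.93) and WT arrays 2 and 5 are the lowest WT arrays (9.50 and 9.61).

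Mmp12, the macrophage elastase, cuts elastin and is made largely by macrophages. It measured 9.96, 10.03, 9.78, 9.64 and 10.04 in WT arrays 1 to 5 and 10.32, 9.85, 9.78, 9.75 and 10.43 in Rac2-/- arrays 1 to 5. Rac2-/- arrays 1 and 5 were above every WT array and the other Rac2-/- arrays lay within the WT range. The difference was -0.14 (95% interval -0.48 to 0.21, limma adjusted p = 0.974), with -0.0930 in arrays 1 and 2 and -0.16 in arrays 3 to 5.

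Mmp19 cuts components of basement membranes. Its values were 9.20, 9.12, 9.38, 9.51 and 9.51 in WT arrays 1 to 5. In Rac2-/- arrays 1 to 5 they were 9.82, 9.95, 10.08, 10.11 and 9.66. Every Rac2-/- array was above every WT array, the closest being Rac2-/- array 5. The means were 9.34 ± 0.18 in WT and 9.92 ± 0.19 in Rac2-/- (SD, n = 5), with a difference of -0.58 (SE 0.12, 95% interval -0.84 to -0.32, limma adjusted p = 0.0366). It was -0.72 in arrays 1 and 2 and -0.48 in arrays 3 to 5. The call was thin where 1 array was left out: it was kept in 2 of these 10 fits, those without Rac2-/- array 1 or 5. The adjusted p reached 0.104 without Rac2-/- array 3, while the difference stayed between -0.64 and -0.52. Over all 25 alternatives the call was kept in 13 and lost in 12. The limma adjusted p was 0.00587 with the batch as a term, 0.0261 with the replicate block and 0.0515 with eBayes trend and robust settings.

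Mmp27 is a little-studied member that lies beside Mmp8 on chromosome 9. It measured 8.46, 8.71, 8.51, 8.49 and 8.43 in WT arrays 1 to 5 and 7.53, 7.87, 8.06, 7.79 and 6.36 in Rac2-/- arrays 1 to 5. The WT arrays lay close together and above all Rac2-/- arrays, which were spread out, with array 5 the lowest by far. The means were 8.52 ± 0.11 in WT and 7.52 ± 0.68 in Rac2-/- (SD, n = 5), or 2.00-fold. The difference of 1.00 (SE 0.28, 95% interval 0.38 to 1.61) had a limma adjusted p of 0.133. With the replicate block the adjusted p was 0.0493, and with the batch as a term it was 0.0499. In 20 of the 25 alternatives Mmp27 still missed the threshold, and in 5 it passed. The difference was 0.88 in arrays 1 and 2 and 1.07 in arrays 3 to 5. Without Rac2-/- array 5 it was 0.71 with an adjusted p of 0.0179.

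The inhibitors did not separate the groups. Timp1, a secreted inhibitor that also binds the Mmp9 proenzyme, measured 7.34, 7.51, 7.58, 7.49 and 7.22 in WT arrays 1 to 5 and 6.36, 7.78, 7.95, 7.73 and 7.09 in Rac2-/- arrays 1 to 5. The Rac2-/- arrays lay on both sides of the WT arrays, with array 1 the lowest, and their SD was 0.66 against 0.14 in WT. The Timp1 difference was 0.05 (95% interval -0.56 to 0.65, limma adjusted p = 0.999), and it was 0.36 in arrays 1 and 2 and -0.16 in arrays 3 to 5. Timp2, which binds Mmp14 and helps it to activate the Mmp2 proenzyme, measured 10.78, 10.57, 11.03, 11.04 and 10.87 in WT arrays 1 to 5 and 10.48, 10.50, 10.86, 10.90 and 11.07 in Rac2-/- arrays 1 to 5. Arrays 1 and 2 were lower than arrays 3 to 5 in both genotypes, and the difference was 0.10 (95% interval -0.22 to 0.41, limma adjusted p = 0.999). Within arrays 1 and 2 it was 0.19 and within arrays 3 to 5 it was 0.0340.

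Of the 10 genes 4 lie in the MMP cluster of mouse chromosome 9, where the order of the 10 MMP genes is Mmp13, Mmp12, Mmp1b, Mmp3, Mmp1a, Mmp10, Mmp8, Mmp27, Mmp20 and Mmp7. Mmp13, at one end, and Mmp27, between Mmp8 and Mmp20, had differences of 0.89 and 1.00, while their measured neighbours had -0.14 (Mmp12), -0.35 (Mmp8) and 0.07 (Mmp20). Mmp10 and Mmp7, the matrilysin, had 0.19 and -0.11. Mmp1b, Mmp3 and Mmp1a were below the low-value filter and were not tested. Mmp9, Mmp14, Mmp19, Mmp25, Timp1 and Timp2 lie on chromosomes 2, 14, 10, 17, X and 11.

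**Figure D4:**
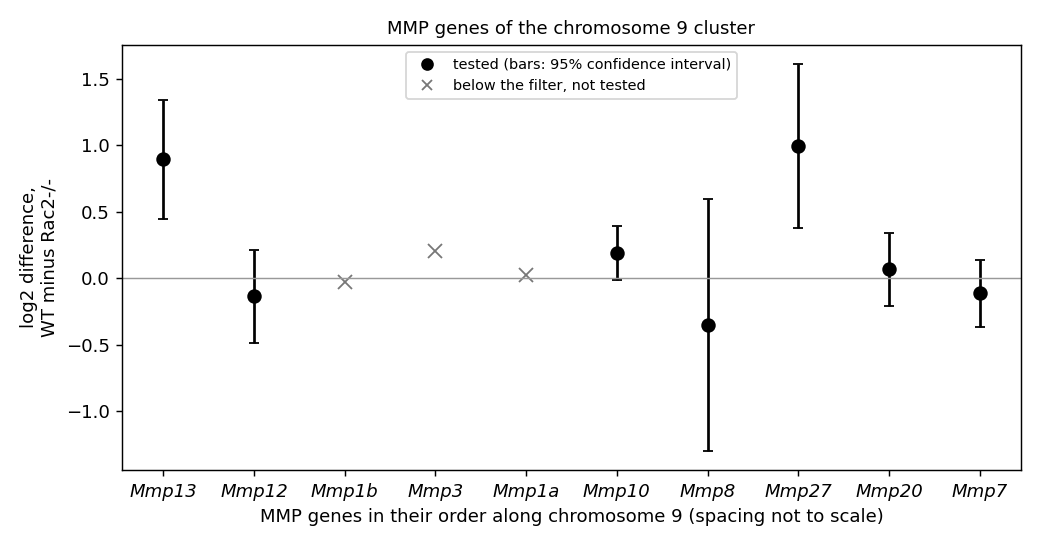
Log2 difference, WT minus Rac2-/-, of the MMP genes in their order along mouse chromosome 9, with 95% confidence intervals for the tested genes and crosses for those below the filter. Mmp13 (0.89) and Mmp27 (1.00) have intervals above 0, and their measured neighbours Mmp12 (-0.14), Mmp8 (-0.35) and Mmp20 (0.07) have intervals that include 0.

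Of the 17 further mouse MMP and TIMP genes, 11 were tested, 5 were below the filter and Mmp15 had no feature of its own. None of the 11 passed the threshold in limma, and 1 had an unadjusted p under 0.05: Mmp11, or stromelysin 3, at 0.25 (adjusted p = 0.389). Next in order of p came Mmp10, or stromelysin 2, at 0.19 (adjusted p = 0.551) and Mmp21 at 0.18 (0.777). The mean was higher in WT for 9 and in Rac2-/- for 2 of the 11, and the median difference was 0.08. Mmp2 had a difference of -0.51 with an SE of 0.53.

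Among proteins that activate, inhibit, bind or clear MMPs, 17 of 18 were measured and 1 passed the threshold, against 1.90% of all features. Pcsk7 encodes a proprotein convertase of the furin family, the enzymes that cut the propeptide of membrane-anchored MMPs. It measured 8.70 ± 0.04 in WT and 8.24 ± 0.09 in Rac2-/- (SD, n = 5), a difference of 0.46 (SE 0.07, limma adjusted p = 0.0103), and it passed in all 10 fits that left out 1 array. Within arrays 1 and 2 it was 0.42 and within arrays 3 to 5 it was 0.48. Furin itself had 9.65 ± 0.43 in WT and 9.79 ± 0.44 in Rac2-/-. Cav1, the caveolae protein caveolin-1, had a difference of -1.14 (SE 0.32) with a limma adjusted p of 0.139, and of 0.0399 with the replicate block. It was -1.52 in arrays 1 and 2 and -0.88 in arrays 3 to 5. Cd74, the invariant chain, had -0.36 (adjusted p = 0.79). The median difference of the 17 was -0.09.

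The ADAM and ADAMTS proteases, relatives of the MMPs that TIMPs can also inhibit, were measured in 22 of 23 cases, with a median difference of 0.02. None passed the limma threshold without the block, 3 had an unadjusted p under 0.05 (Adam8, Adam10 and Adam17), and 3 passed with the replicate block (Adam8, Adam15 and Adam17). Over all features the shares in these 3 counts were 1.90%, 10.4% and 6.35%. Adam8, a protease of myeloid cells, was 0.39 (SE 0.10, adjusted p = 0.0926, and 0.0313 with the block). Adam17, which sheds TNF from the cell surface, was -0.31 (SE 0.11, adjusted p = 0.251, and 0.0326 with the block), and Adam15 was -0.34 (adjusted p = 0.763, and 0.0366 with the block). Adam10, the shedding protease of Notch, was -0.28 (unadjusted p = 0.00409, adjusted p = 0.121 in limma, and 0.0709 with the block). The groups of arrays did not overlap for 2 of the 22, Adam8 and Adam10, and for 4.52% of all features tested. Within arrays 1 and 2 and within arrays 3 to 5, Adam8 was 0.33 and 0.42, Adam17 -0.39 and -0.26, Adam15 -0.41 and -0.29, and Adam10 -0.17 and -0.36.

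The plasminogen system, whose protease plasmin activates several proMMPs, was measured in 9 of 11 genes. Of these, 7 had the higher mean in Rac2-/-, the median difference was -0.18, and 0 passed the limma threshold or an unadjusted p under 0.05. Serpinb2, an inhibitor of urokinase made by macrophages, had -0.68 (adjusted p = 0.506), Anxa2, a cell surface plasminogen receptor, had -0.19 (0.781), and Plaur, the urokinase receptor, had -0.14 (0.912).

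Of 12 AP-1 and Ets transcription factors, families known to act at MMP promoters, 0 passed the limma threshold without the block and 2 had an unadjusted p under 0.05, while 2 passed with the replicate block. The shares over all features were 1.90%, 10.4% and 6.35%. Jun, a subunit of AP-1, was 10.45 ± 0.20 in WT and 9.79 ± 0.31 in Rac2-/- (SD, n = 5), a difference of 0.65 (SE 0.16, limma adjusted p = 0.0768, and 0.0132 with the block). It was 0.66 in arrays 1 and 2 and 0.65 in arrays 3 to 5. Ets2 was -0.49 (adjusted p = 0.315, and 0.0328 with the block), with -0.53 and -0.46 in these sets. Fosl2, another AP-1 subunit, was -0.61 (adjusted p = 0.485). The median of the 12 was -0.02.

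**Figure D5:**
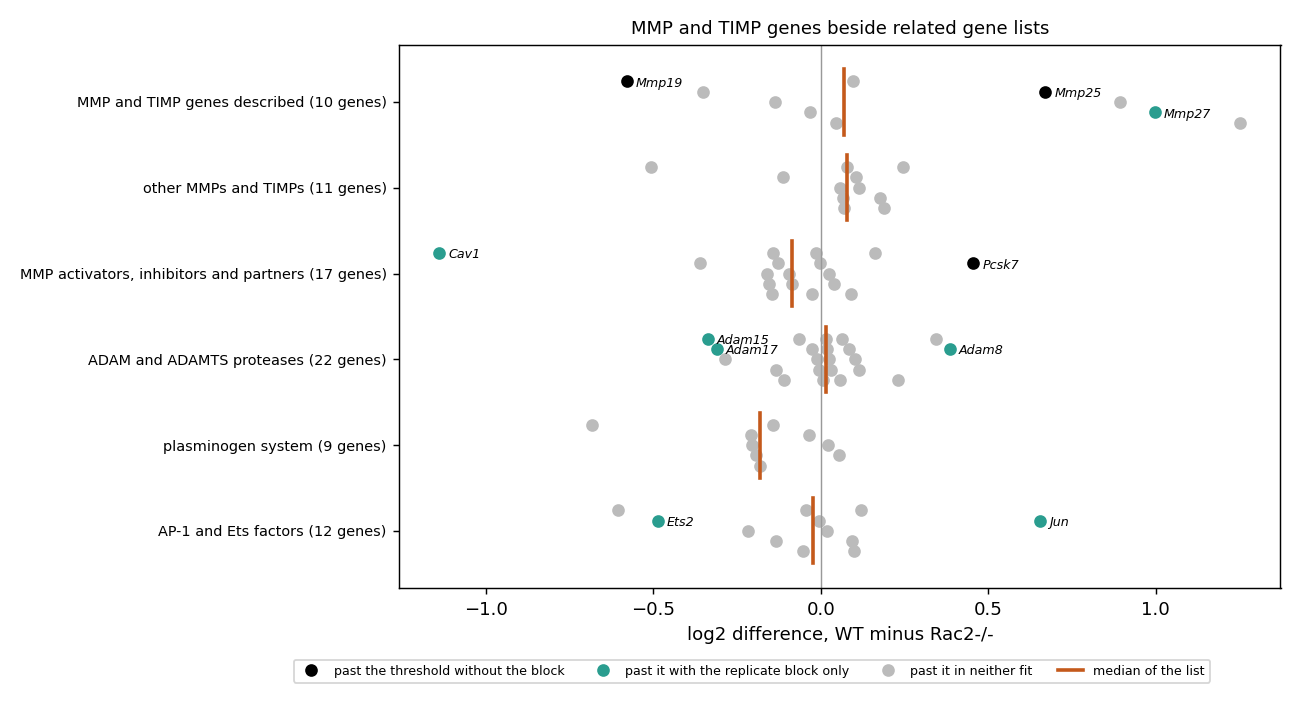
Log2 difference, WT minus Rac2-/-, of each tested gene in 6 lists, with black points past the limma threshold without the block, green points past it with the replicate block only, grey points past it in neither fit and an orange line at each list's median. The medians lie between -0.18 and 0.08, and Mmp25, Mmp19 and Pcsk7 are the black points.

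Markers of other cells were read beside these results. Fibroblast and stromal markers averaged 6.95 to 7.34 in WT and 6.60 to 7.13 in Rac2-/- arrays over 12 genes. The mean was higher in WT for 10 of the 12 and in Rac2-/- for 2, with a median difference of 0.21. Of the 12, 0 passed the limma threshold and 6 had an unadjusted p under 0.05, against 10.4% of all features. With the block 4 passed, against 6.35% of all features. Of these 4, Dcn, Postn and Sparc were higher in WT (1.21, 0.69 and 0.78) and Pdgfrb was higher in Rac2-/- (-0.62), with block adjusted p of 0.0173, 0.00390, 0.0228 and 0.0302, against 0.137, 0.123, 0.469 and 0.279 without it. Markers of mast cells and basophils averaged 5.71 to 6.25 in WT and 5.41 to 5.61 in Rac2-/- arrays over 8 of 12 genes. Of the 8, Cpa3 passed the low-value filter only through its WT values (4.11 to 6.05, against 3.87 to 4.42 in Rac2-/-). The filter kept features with a fourth-highest value of at least 4.73. The gap between the marker ranges is therefore not read as a separation of the groups. Of the 8, Cpa3 included, 7 had the higher mean in WT and 1 in Rac2-/-, with a median difference of 0.38. An unadjusted p under 0.05 was found for 5 of them, against 10.4% of all features. Prss34 was 1.18 and Mcpt8 was 0.84, with limma adjusted p of 0.101 and 0.286. Among the 8, Hdc, the histidine decarboxylase, passed the threshold (0.49, limma adjusted p = 0.0185), with 0.50 in arrays 1 and 2 and 0.48 in arrays 3 to 5. Osteoclast markers averaged 6.73 to 7.13 in WT and 6.66 to 7.35 in Rac2-/- arrays over 8 genes, with a median difference of -0.04 and 0 past the threshold. Ctsk, the cathepsin of osteoclasts, was the 1 with an unadjusted p under 0.05 and passed with the block (0.90, limma adjusted p = 0.109, and 0.0251 with the block). Among 7 dendritic cell markers, Ccr7 was 0.91 (limma adjusted p = 0.0141), Itgax was -1.95 (0.00424) and Xcr1 was -0.61 (0.173, and 0.00877 with the block). Among 6 endothelial markers 0 passed the threshold or an unadjusted p under 0.05. Mmp13 is also known from stromal and bone cells. The mean levels of the stromal and osteoclast markers overlapped between the groups, although 10 of the 12 stromal markers had the higher mean in WT. The part of stromal cells, osteoclasts, mast cells and basophils in the Mmp13 and Mmp27 values was not tested.

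For the members past the threshold with or without the block, the 3 genes with the most similar values over the 10 arrays were found by Pearson r after the mean of each batch was subtracted, as a description with no test. They share the genotype groups with the member, which alone gives a high r. For Mmp25 they were Slamf9, a receptor of antigen-presenting cells (r = 0.994), Gdf3, a ligand of the TGF-β family (0.989), and Mdfic (0.985), with differences of 1.51, 2.07 and 0.39. For Mmp19 they were Cd28 (0.987), Dmxl2 (0.985) and the interferon-induced Ifi44l (0.983), with differences of -0.39, -0.83 and -5.43. For Mmp27 they were Rnf25 (0.991), Arhgap25, a GTPase-activating protein for Rac (0.988), and Tmcc3 (0.986), with differences of 0.33, 0.34 and 0.95.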

How the data were processed

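RNA of 5 WT and 5 Rac2-/- arrays was measured on Affymetrix Mouse Gene 1.0 ST arrays. The values are the log2 expression values that the authors deposited, made with RMA (background correction, quantile normalization and probe summary), with no scanner file used here. The methods of the study also name a filter that kept 27031 genes expressed in at least 4 samples, ComBat batch adjustment and limma at a false discovery rate of 5%. The deposited table held 34760 features, with array medians of 6.07 to 6.14, and showed the batches still in place. Array data give no read depth, and the number of arrays limits the precision.

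From these, features were ranked by their fourth-highest value, the top 27031 were retained and WT minus Rac2-/- was fitted with limma 3.58.1 in R 4.3.3, without further terms, with Benjamini-Hochberg adjustment over all of them and a threshold of 0.05. Features were named from the platform annotation: 21640 had 1 symbol, 1321 several and 11799 none. Of the symbols 21553 were updated by gene ID, 3 by accession and 84 kept as given. Where a gene had several features, that with the largest mean was used. The statistics were first tested on simulated data.

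The design names 5 mice per genotype but does not tie arrays to mice, so the p-values reflect only variation among the arrays, which may be technical in part. No arrays were duplicates: the SD of feature differences between arrays of a group was 0.187 (WT arrays 3 and 4) or more. Same-numbered arrays deviated together from their group means (r = 0.493 to 0.716 over features), as did arrays of other numbers in the same batch (0.476 to 0.724), against -0.716 to -0.515 across batches. The range for the same number was like that for other numbers in the batch, so the values do not show that same-numbered arrays are pairs. A fit with the number as a block was added even so, and its block also takes up the batch.

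The members, lists, markers and batches were chosen with earlier results of these data known. Named genes were the members, Rac2, the genes of each list past the threshold with or without the block (or, where under 3, the 3 with the smallest p), and for each called member the 3 genes most like it. Furin, Mmp2, Timp3, Adam10 and the markers were named, after their values were seen, beside them as context. Alternatives covered the filter, the block, a batch term, ComBat, single batches, limma settings, normalization and each array left out. Promoter windows were read from RefSeq (GRCm38.p6).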

Additional observations from a re-analysis of the deposited data

Results flagged for a closer look

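Mmp27 in WT array 2 stood apart from the other WT arrays: it measured 8.71, against 8.43 to 8.51 in the other WT arrays, a gap of 0.73 of the group's whole range. It lay on the side away from the Rac2-/- arrays. It was the only such value among 22 groups of 5 arrays (11 genes, Rac2 included, in 2 genotypes), and chance alone picks out about 1 in 20 groups.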

How the results depend on the processing

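Over 25 alternatives, 209 of the 250 values of the 10 genes kept their direction and their side of the threshold, 14 newly passed it, 14 no longer did and 13 changed sign. Rac2 passed under every one. The sign changes were in Mmp8, Mmp14 and Timp1, none of them past the threshold. Mmp8 was 0.0709 without the 3 arrays low in neutrophil markers. Mmp14 was 0.0290 in arrays 3 to 5, 0.15 without the 3 low arrays, and -0.16 to 0.0688 with 1 array left out, above 0 without WT array 5 (0.0624), Rac2-/- array 1 (0.0561) or Rac2-/- array 2 (0.0688). Timp1 was -0.16 in arrays 3 to 5, -0.11 with array weights, -0.0427 with the neutrophil marker level as a covariate, -0.0364 with the batch added, -0.21 to 0.19 with 1 array left out, below 0 without Rac2-/- array 1 (-0.21) or 5 (-0.0272), and -0.17 without the 3 low arrays.

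Against 2 of the 10 genes past the threshold, 4 passed with a batch term, with ComBat, with array weights and with the marker level and batch as covariates, 1 passed with eBayes trend and robust settings (Mmp25), 0 in arrays 1 and 2 alone and without the 3 low arrays, and 1 to 3 with 1 array left out. Mmp13 and Mmp27 were the genes gained with the batch term, ComBat and array weights. With the fits of few arrays the number of arrays fell too. Over all features, 514 passed as reported, 2524 with the batch term, 4386 with ComBat, 2 in arrays 1 and 2, 1487 in arrays 3 to 5, 1811 with array weights, 2954 with the marker level and batch, 163 without the 3 low arrays, and 245 to 625 with 1 array left out. ComBat adjusts the values before the fit without charging the degrees of freedom it uses.

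With the replicate block, 3 of the 10 genes passed (Mmp27 added), as did 1716 features, and the calls of the partners, the ADAM proteases and the AP-1 and Ets factors were 2, 3 and 2. The block changed no other call among the 10 genes. Of the partners, 2 passed with a batch term, ComBat or the marker level and batch, and 0 in arrays 1 and 2 or without the 3 low arrays. Of the ADAM proteases, 4 passed with a batch term, 5 with ComBat, 4 with array weights and 4 with the marker level and batch. Of the AP-1 and Ets factors, 3 passed with a batch term or ComBat, 1 with array weights, 1 with quantile normalization and 3 with the marker level and batch. Of the other MMPs and TIMPs, 1 passed with the marker level and batch. The causes of these shifts were not tested, beyond the smaller number of arrays in some fits. The fits with the neutrophil marker level or without the 3 low arrays were chosen after seeing the data.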
